A study of Acidomyces sp. 'richmondensis' with 12 samples.

Results

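A set of 65 genes of the acidophilic fungus Acidomyces richmondensis MEY-1, of 10043 genes in all, had lower RNA levels in mycelium transferred to copper, both in the wild type (WT) and in a strain deleted for ArAceA. The genes were selected on the measured values themselves, as FPKM (fragments scaled for transcript length and for the total of mapped fragments). For each genotype the mean of the 3 copper libraries was compared with the mean of the 3 libraries without copper, on the log2(FPKM + 1) scale. A gene entered the set when this change was -0.5 or lower in both genotypes, when at least 1 group mean reached 5 FPKM, and when its mean over the 12 libraries was under 1000 FPKM. The fall with copper is therefore how the genes were found, and it is given here as a description with no test. Without the limits on level 84 genes passed both change thresholds, and of these 16 were left out because no group reached 5 FPKM and 3 because their mean was 1000 FPKM or more.

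The study asked what determines copper resistance in this fungus, using gene deletions made with CRISPR/Cas9. RNA was taken from mycelia of 2 genotypes of strain MEY-1, WT and the deletion strain ∆ArAceA, each grown from arthroconidia of 10-day agar plates for 4 days in 100 mL of shaken liquid MMC medium and then moved for 6 h to fresh medium that held either no CuCl2 or 15 mM CuCl2. This gave 4 groups of 3 cultures: WT without copper, WT with copper, ∆ArAceA without copper and ∆ArAceA with copper. All 12 cultures shared the strain background, the medium and the transfer, so the groups without copper had also been washed and moved. How many independent clones stand behind ∆ArAceA is not given in the labels, and the growth temperature is given as 28 °C in one place and 30 °C in another.

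Copper is both a nutrient and a poison. Fungi take it up through membrane transporters of the Ctr family after reduction at the cell surface, and they deal with an excess by exporting it through P-type ATPases and by binding it to metallothioneins. In Saccharomyces cerevisiae the copper-uptake genes are a textbook case of genes that are lowered when copper is plentiful. AceA of Aspergillus fumigatus is a copper-sensing transcription factor that turns on export and storage genes in excess copper. The files list genes by locus identifier and pair none of them with a name, product or sequence, so no role can be given to any gene of the set, the counts of uptake or storage genes in it were not made, and the level of ArAceA itself could not be used to check the strain labels.

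The FPKM values of a library summed to between 884111 and 926713, and between 452 and 598 of the 10043 genes were listed at 0 in a library. Sequencing depth is unknown, since FPKM values carry no read counts, and no counting interval can be given. No pair of libraries agreed in more than 0.332% of their values of at least 10 FPKM. In bulk mycelial RNA, fewer cells of a type and less RNA per cell cannot be told apart.

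Of the 65 genes, 41 had their highest group mean in ∆ArAceA without copper and 24 in WT without copper. The lowest group mean was in ∆ArAceA with copper for the same number, 41, and in WT with copper for 22. Both copper groups tied for the lowest mean in the other 2, M433DRAFT_966 and M433DRAFT_446038. The median gene of the set stood at 26.0 FPKM in WT, 16.1 FPKM in WT with copper, 51.1 FPKM in ∆ArAceA and 14.9 FPKM after copper in ∆ArAceA. Over the 8741 genes that entered the tests, the medians were 19.2, 19.0, 21.8 and 21.3 FPKM in the same order. The set spans a wide range of levels: the highest group mean was under 20 FPKM for 18 genes, from 20 to 100 FPKM for 26 and 100 FPKM or more for 21.

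The change with copper in WT ran from -3.53 to -0.51 on the log2(FPKM + 1) scale, with a median of -0.67 and quartiles of -0.93 and -0.57. In ∆ArAceA it ran from -4.92 to -0.51, with a median of -1.25 and quartiles of -1.92 and -0.89. The medians over all tested genes were -0.01 in WT and -0.04 in ∆ArAceA. A fall of at least 2-fold on this scale was seen in 13 genes in WT, in 45 in ∆ArAceA and in 11 in both. The fall was the deeper in ∆ArAceA for 56 genes, or 86.2% of the set, where 53.0% of all tested genes had the lower value in ∆ArAceA. That background holds genes of any copper change. Within the limits on level, a change of -0.5 or lower was reached by 1049 genes in ∆ArAceA and by 119 in WT. Within the set the 2 falls differed by less than 0.5 in 32 genes, ∆ArAceA had the deeper fall by 0.5 or more in 30, and WT had it in 3, which were M433DRAFT_59954, M433DRAFT_446038 and M433DRAFT_386533. M433DRAFT_446038 was at 0 with copper in both genotypes. Its difference therefore reflects only its levels without copper, 10.55 FPKM in WT and 5.61 FPKM in ∆ArAceA. These differences are functions of the contrasts that chose the genes, and no test was made of them.

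**Figure D1:**
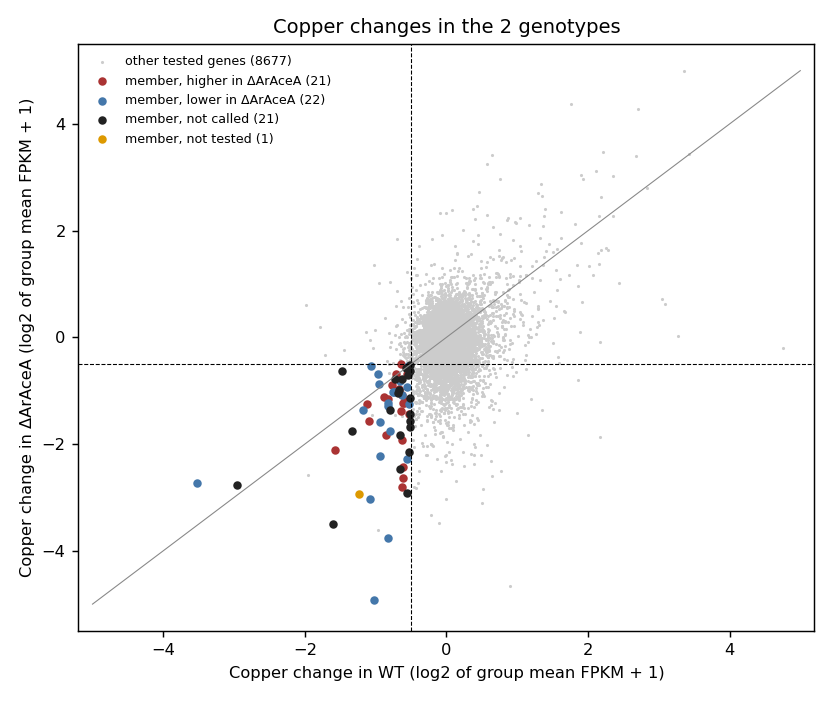
Copper change in WT (x axis) against copper change in ∆ArAceA (y axis), both as differences of log2(group mean FPKM + 1), with the 65 genes coloured by their genotype class over the other tested genes in grey, the thresholds of -0.5 as dashed lines and equal changes as the diagonal. Within the set 56 genes have the lower value on the ∆ArAceA axis, and the values reach -4.92 there and -3.53 on the WT axis.

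The set is a large share of the genes that fell in WT and a small share of those that fell in ∆ArAceA. Among the 7122 genes within the limits on level, 119 had a WT change of -0.5 or lower, and the set holds 54.6% of them. Of the other 54, 26 had a change of 0 or higher in ∆ArAceA. In ∆ArAceA 1049 genes had a change of -0.5 or lower, and the set holds 6.2% of those. Of the other 984, 453 had a change of 0 or higher in WT.

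The libraries with and without copper separated for more genes of the set in ∆ArAceA than in WT. All 3 copper libraries lay below all 3 libraries without copper for 51 of the 65 genes in WT, where 18% of tested genes did so, for 63 of 65 in ∆ArAceA, where 36.1% did so, and for 50 in both. The 2 genes with overlap in ∆ArAceA were M433DRAFT_68455 and M433DRAFT_8911. The test run over all genes (limma on log2(FPKM + 1), Benjamini-Hochberg adjusted p under 0.05) called 49 of the 64 genes it covered lower in WT, against 10.7% of all tested genes, and 63 of 64 lower in ∆ArAceA, against 31.5%. In the authors' deposited table, 45 of the 65 genes were lower in WT at a Q value under 0.05, against 5.46% of the genes with a Q value, and 60 were lower in ∆ArAceA, against 22.7%. All 65 log2 ratios were negative in both genotypes in the authors' deposited table, with a median of -0.63 in WT and -1.16 in ∆ArAceA. Since the rule used these contrasts, nothing is read from these counts about the set.

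Some genes sit close to the thresholds. For 20 genes the weaker of the 2 changes lay between -0.6 and -0.5. M433DRAFT_73121 was the gene just inside in WT, with changes of -0.51 in WT and -0.52 in ∆ArAceA, and M433DRAFT_5466 lay just outside with -0.49 and -2.16. M433DRAFT_75270 was just inside in ∆ArAceA, with -0.64 in WT and -0.51 in ∆ArAceA, and M433DRAFT_135741 lay just outside with -0.52 and -0.45.

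**Figure D2:**
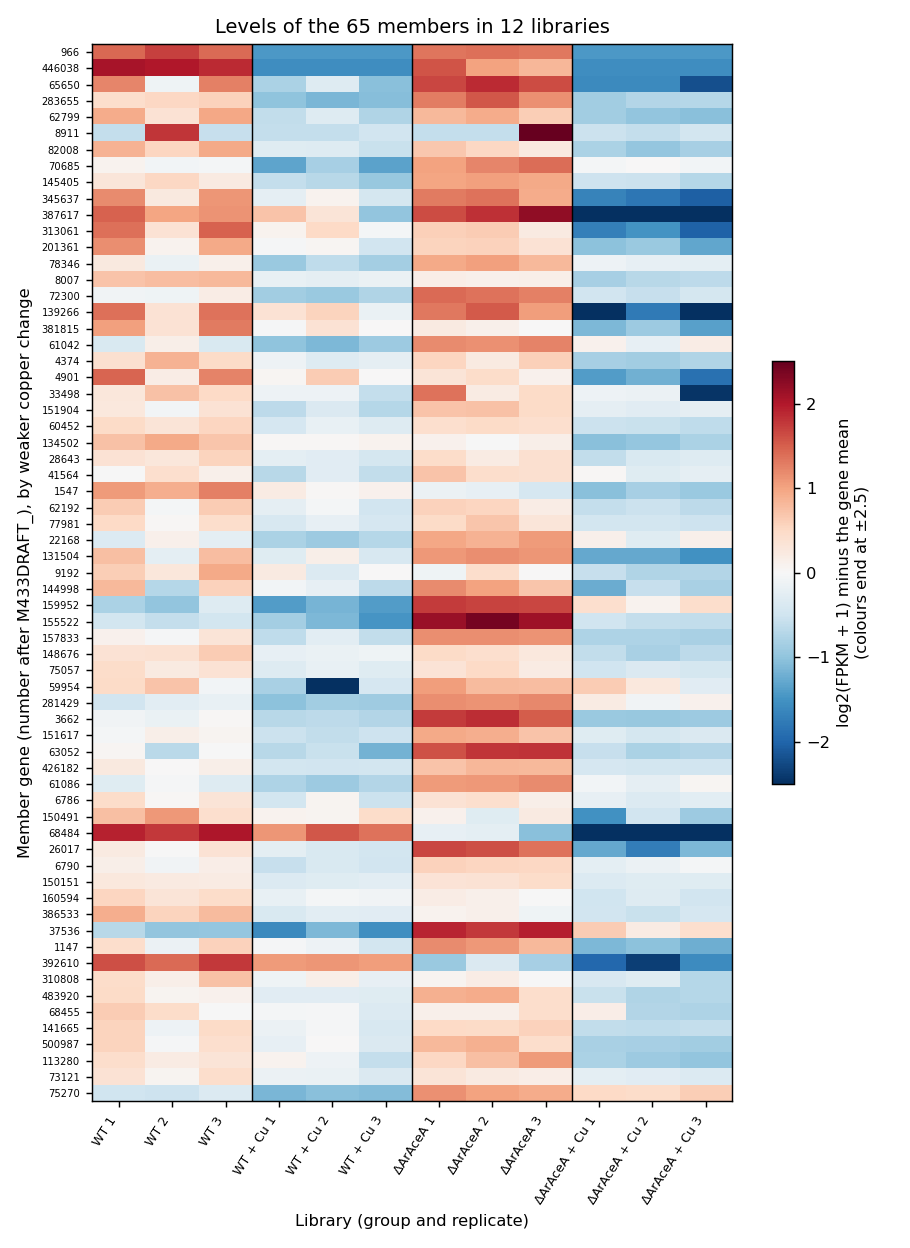
Level of each of the 65 genes (rows) in each of the 12 libraries (columns, by group), as log2(FPKM + 1) minus the gene's mean over the 12 libraries. The copper columns are the lower ones in both genotypes, which the rule fixes. The lowest group is ∆ArAceA with copper for 41 genes and WT with copper for 22, and both copper groups tie for 2.

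The deepest falls shared by both genotypes were in 2 low-level genes that the files list at 0 in every copper library. M433DRAFT_966 had 6.27, 7.87 and 6.21 FPKM in the WT libraries, 5.80, 5.96 and 5.73 FPKM in the ∆ArAceA libraries, and 0 in all 6 copper libraries. Its 6 libraries without copper lie close together in both genotypes, at means of 6.78 ± 0.942 FPKM (SD, n = 3) in WT and 5.83 ± 0.118 FPKM (SD, n = 3) in ∆ArAceA. M433DRAFT_446038 had 11.17, 10.76 and 9.72 FPKM in WT, 7.76, 4.87 and 4.21 FPKM in ∆ArAceA, and 0 in all 6 copper libraries. Here the WT libraries without copper all lie above the ∆ArAceA ones. No fold is given against groups listed at 0.

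M433DRAFT_65650 was the most abundant gene among the deep falls in both genotypes. It had 1259.50, 501.11 and 1299.92 FPKM in WT, against 313.69, 434.31 and 261.43 FPKM in WT with copper. The ∆ArAceA libraries had 1737.42, 1977.88 and 1670.99 FPKM without copper and 180.02, 179.47 and 117.26 FPKM with copper. The groups do not overlap in either genotype, but WT replicate 2 stands far below the other WT libraries and just above the highest WT copper library. By group means the level was 3.03-fold lower with copper in WT and 11.3-fold lower in ∆ArAceA, and ∆ArAceA held both the highest and the lowest of the 4 means, 1795 ± 161 and 159 ± 36.1 FPKM (SD, n = 3 each).

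M433DRAFT_283655 was a low-level gene with a deep and even fall. It had 2.87, 3.1 and 3.24 FPKM in WT, against 0.42, 0.30 and 0.37 FPKM in WT with copper. Its ∆ArAceA values were 5.92, 7.39 and 5.32 FPKM without copper and 0.57, 0.72 and 0.74 FPKM with copper. No copper library reached the level of any library without copper, and by group means the fall was 8.45-fold in WT and 9.18-fold in ∆ArAceA. On the log2(FPKM + 1) scale, which compresses low levels, these falls read as -1.58 and -2.10.

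On the log2(FPKM + 1) scale, the deepest falls in ∆ArAceA belonged to M433DRAFT_387617 and M433DRAFT_139266. On that scale these were also the genes whose 2 falls differed most. M433DRAFT_387617 had 173.37, 123.08 and 135.24 FPKM in WT, against 102.04, 77.85 and 30.64 FPKM in WT with copper. The deletion strain gave 193.37, 221.88 and 290.22 FPKM without copper and 9.91, 6.72 and 3.83 FPKM with copper. By group means it was 2.05-fold lower with copper in WT and 34.5-fold lower in ∆ArAceA, from a higher starting level in ∆ArAceA, and the 3 ∆ArAceA copper libraries lie far below all other libraries. M433DRAFT_139266 had 87.93, 42.69 and 86.97 FPKM in WT, against 42.93, 49.22 and 29.58 FPKM in WT with copper, so that WT replicate 2 lies among the copper libraries. In ∆ArAceA it had 83.99, 97.95 and 69.92 FPKM without copper and 2.53, 9.09 and 4.13 FPKM with copper, with no overlap. The falls by group means were 1.79-fold in WT and 16.0-fold in ∆ArAceA. In the authors' deposited table the WT changes of these genes, log2 ratios of -0.69 and -0.64, had Q values of 0.219 and 0.201, and the ∆ArAceA changes were -4.34 and -3.07.

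By the change in group means, the opposite order, with the deeper fall in WT, was largest in M433DRAFT_59954. It had 11.24, 13.36 and 7.38 FPKM in WT, 3.99, 0 and 5.56 FPKM in WT with copper, 16.98, 14.08 and 13.91 FPKM in ∆ArAceA and 12.52, 9.43 and 6.23 FPKM after copper in ∆ArAceA. The groups do not overlap within either genotype, but the WT copper value rests in part on 1 library listed at 0, and the copper libraries of both genotypes spread widely. Its changes were -1.48 in WT and -0.62 in ∆ArAceA. In the authors' deposited table the order was the reverse, with log2 ratios of -0.44 in WT (Q = 0.492) and -0.60 in ∆ArAceA (Q = 0.0615).

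The 3 genes with the highest mean over the 12 libraries were M433DRAFT_4901, M433DRAFT_131504 and M433DRAFT_65650. M433DRAFT_4901 had 2074.23, 852.98 and 1776.91 FPKM in WT, against 772.90, 1166.93 and 760.14 FPKM in WT with copper. The ∆ArAceA libraries had 936.35, 1032.22 and 812.95 FPKM without copper and 286.90, 326.02 and 205.06 FPKM with copper. WT replicate 2 falls between the WT copper libraries, while the ∆ArAceA libraries separate with a wide gap, and the falls by group means were 1.74-fold in WT and 3.40-fold in ∆ArAceA. M433DRAFT_131504 had 1236.60, 621.80 and 1258.60 FPKM in WT, against 595.58, 812.22 and 560.98 FPKM in WT with copper. Its ∆ArAceA values were 1553.20, 1651.71 and 1590.96 FPKM without copper and 301.67, 302.31 and 258.20 FPKM with copper. Again WT replicate 2 lies among the WT copper libraries and the ∆ArAceA groups are tight, with falls of 1.58-fold in WT and 5.56-fold in ∆ArAceA by group means.

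**Figure D3:**
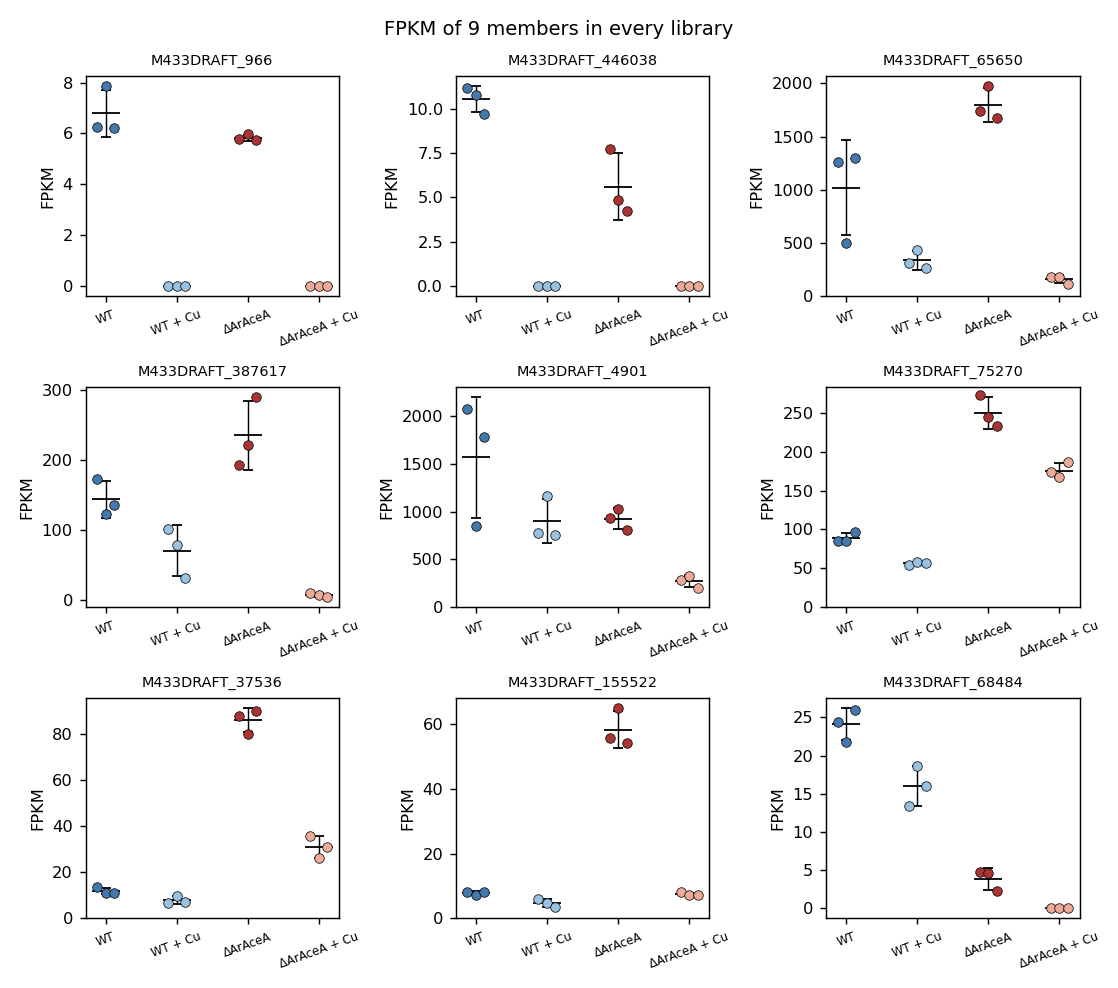
FPKM of 9 genes in each library of the 4 groups (points) with the group mean ± SD (bar), each panel on its own axis. M433DRAFT_65650, M433DRAFT_387617 and M433DRAFT_4901 have their lowest group in ∆ArAceA with copper, M433DRAFT_966 and M433DRAFT_446038 are listed at 0 in all 6 copper libraries, and M433DRAFT_68484 is listed at 0 in the 3 ∆ArAceA copper libraries.

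WT replicate 2 stood apart from WT replicates 1 and 3 in this set. It was the lowest of the 3 WT libraries without copper for 45 of the 65 genes, where the same held for 22.1% of all tested genes. For 12 genes it lay at or below the highest WT copper library, while for 63 genes WT replicates 1 and 3 both lay above all WT copper libraries. The pattern was strongest in the abundant genes. In the 14 genes that averaged at least 100 FPKM, a limit chosen after the values were seen, it was the lowest in 14 of 14, where it was the lowest in 25.7% of the 1368 tested genes at that level, and it reached a median of 59.0% of the mean of the other WT libraries, where the tested genes had 102%. In the 51 genes under 100 FPKM it was the lowest in 31 and reached a median of 88.1%.

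The shares differed from gene to gene. WT replicate 2 stood at 39.2% of the mean of replicates 1 and 3 for M433DRAFT_65650, at 44.3% for M433DRAFT_4901, at 47.8% for M433DRAFT_313061 and at 49.8% for M433DRAFT_131504, but at 93.2% for M433DRAFT_75270. M433DRAFT_313061, named after its values were seen, had 959.43, 471.96 and 1016.47 FPKM in WT, against 392.55, 519.96 and 357.64 FPKM in WT with copper. The deletion strain gave 557.19, 572.66 and 427.13 FPKM without copper and 112.50, 129.88 and 89.89 FPKM with copper. Its WT groups overlap through replicate 2 alone.

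Leaving out WT replicate 2 made the WT fall deeper. The median WT change of the 65 genes was -0.67 with it and -0.71 without it, and for the 14 abundant genes it was -0.81 with it and -1.02 without it. The median change in ∆ArAceA, which does not use that library, was -1.67 for those 14 genes and -1.23 for the other 51. What set WT replicate 2 apart is not given in the labels and was not tested.

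The abundant genes also moved together within groups. With each library taken as its deviation from its group mean on the log2(FPKM + 1) scale, the median correlation between pairs of the 14 abundant genes was 0.806 over 91 pairs, and 74.7% of the pairs were above 0.5. The median was 0.0872 for pairs among the other 51 genes and 0.0441 for pairs among the 1368 tested genes of at least 100 FPKM. Without the 3 WT libraries the median for the 14 genes was 0.664 and that for the tested genes 0.0195. These correlations are across the 12 libraries, which the genes share, and are given as a description. The replicate spread of the set was wider than that of other genes in each group: the median SD of log2(FPKM + 1) was 0.22 in WT, 0.15 in WT with copper, 0.14 in ∆ArAceA and 0.10 in ∆ArAceA with copper, where the tested genes had 0.10, 0.08, 0.07 and 0.07. In ∆ArAceA replicate 3 was the lowest library without copper for 42 genes, where 34.3% of all tested genes had it lowest. Among the WT copper libraries replicate 3 was the lowest for 33, where 31.9% of all tested genes had it lowest. WT copper replicate 2 was the highest for 35, and the share of all tested genes was not counted for that. WT replicate 2 was thus not the only library that often lay low in this set.

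**Figure D4:**
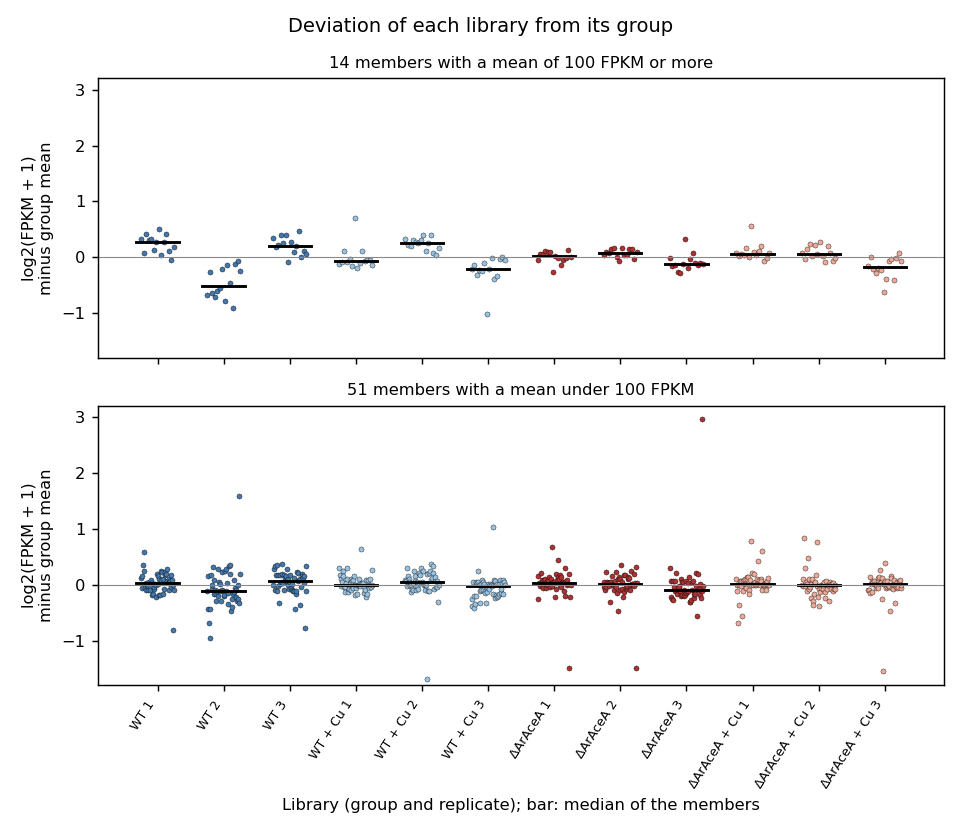
Deviation of each library from its group mean, in log2(FPKM + 1), for the 14 genes of at least 100 FPKM and the other 51 genes of the set (points), with the median over genes as a bar. WT replicate 2 lies low for the abundant genes, in which it was the lowest WT library for 14 of 14, and it was the lowest for 31 of the other 51.

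Summed over the 65 genes, the set took 1.23%, 0.717% and 1.17% of the FPKM total in the WT libraries and 0.536%, 0.677% and 0.514% in WT with copper. In ∆ArAceA it took 1.2%, 1.27% and 1.12% without copper and 0.364%, 0.371% and 0.328% with copper. The means were 1.04 ± 0.280% and 0.576 ± 0.0885% in WT, and 1.2 ± 0.0743% and 0.354 ± 0.0229% in ∆ArAceA (SD, n = 3 each). No copper library overlapped with the libraries without copper of its genotype, and WT replicate 2 came closest, at 0.717% against the 0.677% of WT copper replicate 2.

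The change thresholds of the rule did not use the level of the 2 genotypes relative to each other, averaged over the copper conditions, and this was the one contrast tested. The level limit of the rule does bear on it: 7 of the 64 tested genes reached 5 FPKM in 1 genotype only, so their genotype difference is partly fixed by how they were chosen. They were M433DRAFT_145405, M433DRAFT_159952, M433DRAFT_283655 and M433DRAFT_483920, which reached 5 FPKM only in ∆ArAceA, and M433DRAFT_68484, M433DRAFT_392610 and M433DRAFT_150491, which reached it only in WT. Their values are given as a description with no test, and the counts that follow are for the 57 genes that reached 5 FPKM in each genotype, beside all tested genes held to the same limits on level. This restriction was chosen after the values were seen. The 57 include M433DRAFT_966 and M433DRAFT_446038, at 0 in every copper library, whose genotype difference follows from the copper changes the rule used.

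limma on log2(FPKM + 1), with Benjamini-Hochberg adjustment over all 8741 tested genes, called 18 of the 57 genes higher in ∆ArAceA, which is 31.6%, where 44.5% of the 6604 genes held to the same limits were called higher. It called 19 lower, which is 33.3%, where 15.4% of those genes were called lower. The median difference was -0.09 for the 57 genes and 0.09 for the 6604. A rescaling of the libraries by the median of ratios, which moved the median of all tested genes by -0.13, to -0.01, left 18 of the 57 called higher, 31.6% against 27.5%, and 23 called lower, 40.4% against 36.6%. On that scaling the shares in the set lie near the background, so the distance between them depends on the scaling.

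With the 7 genes included, 21 of 64 were called higher, 32.8% where 45.8% of all tested genes were, 22 were called lower, 34.4% where 14.6% were, and 21 were not called. After median-of-ratios scaling these were 21 higher, 32.8% where 30.9% of all tested genes were, and 26 lower, 40.6% where 31.6% were. These counts over the 64 are a description. The level limit of the rule partly fixes the difference of the 7 genes, and all tested genes were not held to it. M433DRAFT_8911 did not pass the filter on low values and was not tested, and each of the 64 others had at least 1 FPKM in at least 3 libraries of each genotype.

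Averaged over the copper conditions, the set held large genotype differences in both directions. Among the 57 genes, 8 were called and at least 2-fold higher, which is 14.04% where 2.68% of the genes held to the same limits were so, and 6 were called and at least 2-fold lower, which is 10.5% where 0.591% were so. The 6 include M433DRAFT_387617 and M433DRAFT_139266, whose mean without copper was the higher in ∆ArAceA. The background was not matched for the copper change, and the shares of the 57 are not given on other scalings. Over the 64 genes the counts were 9, which is 14.1% where 3.91% of all tested genes were so, and 8, which is 12.5% where 0.709% were so. After median-of-ratios scaling they were 7 and 9 of the 64, where 3.03% and 0.906% of all tested genes were so. The counts over the 64 are a description, since they include the 7 genes and all tested genes were not held to the limits on level. In 4 genes all 6 ∆ArAceA libraries lay above all 6 WT libraries, copper or not, where 17.4% of tested genes did so, and these were M433DRAFT_37536, M433DRAFT_75270, M433DRAFT_281429 and, among the 7, M433DRAFT_159952. In 3 genes all 6 lay below, where 3.81% of tested genes did so, and these were M433DRAFT_1547 and, among the 7, M433DRAFT_68484 and M433DRAFT_392610. Of the 57 genes, 3 lay above and 1 below in this way. Both are smaller shares than those of all tested genes, which were not held to the same limits on level. The rule also asks for a copper fall in each genotype, which widens the range of its 6 libraries and makes full separation harder. These counts are therefore a description, and nothing is read from them about the set.

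**Figure D5:**
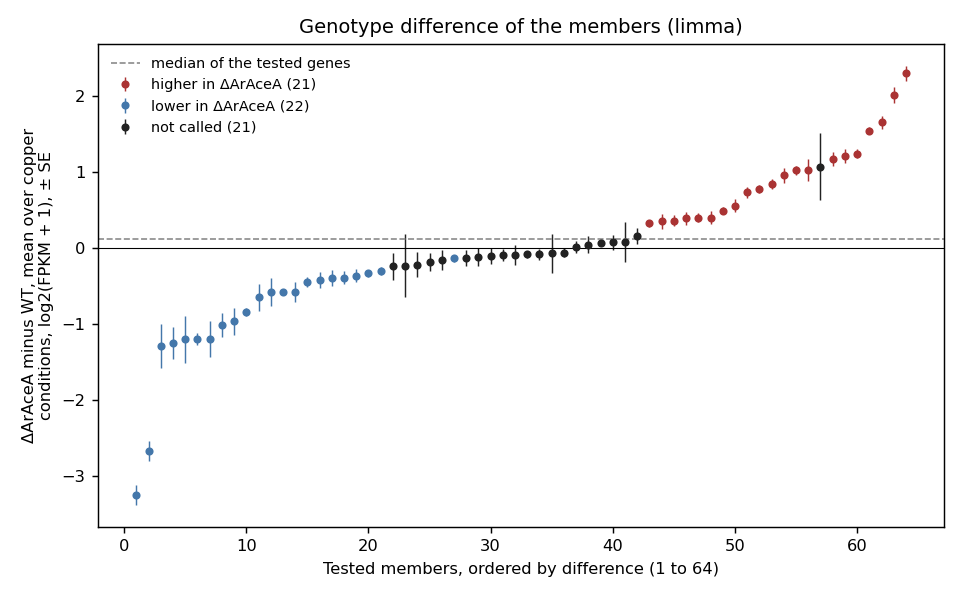
Fitted difference of ∆ArAceA minus WT averaged over the copper conditions, in log2(FPKM + 1) with its SE, for the 64 tested genes of the set in order of that difference, coloured by whether limma called them at an adjusted p under 0.05, with the median of all tested genes as a dashed line. The differences run from -3.24 for M433DRAFT_68484 to 2.30 for M433DRAFT_37536, with 22 genes called lower and 21 called higher, of which 3 in each direction reached 5 FPKM in 1 genotype only.

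Among the genes called higher, M433DRAFT_37536 had 13.58, 10.92 and 11.14 FPKM in WT, against 6.81, 9.88 and 7.12 FPKM in WT with copper. In ∆ArAceA it had 87.82, 79.88 and 89.95 FPKM without copper and 35.83, 26.19 and 30.81 FPKM with copper. Every ∆ArAceA library, also with copper, lies above every WT library, and the group means were 7.23-fold higher in ∆ArAceA without copper and 3.90-fold higher with copper. The averaged difference was 2.30 ± 0.096 (SE) on the log2(FPKM + 1) scale, with an adjusted p of 1.21e-09 from limma. M433DRAFT_159952 had 4.24, 3.55 and 6.21 FPKM in WT, 2.44, 3.05 and 2.41 FPKM in WT with copper, 29.33, 28.19 and 27.55 FPKM in ∆ArAceA and 10.98, 8.52 and 11.19 FPKM after copper in ∆ArAceA. It shows the same separation of the genotypes at a lower level, and it reached 5 FPKM only in ∆ArAceA. Its fitted difference was 2.01 ± 0.10 (SE), given with no test.

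M433DRAFT_155522 had 8.24, 7.36 and 8.22 FPKM in WT, 5.99, 4.77 and 3.54 FPKM in WT with copper, 55.66, 64.94 and 54.23 FPKM in ∆ArAceA and 8.0, 7.32 and 7.21 FPKM after copper in ∆ArAceA. The higher level of the deletion strain lay mainly in the libraries without copper: with copper the ∆ArAceA libraries lay close to the WT libraries without copper. The group means were 7.34-fold higher in ∆ArAceA without copper and 1.58-fold higher with copper, and the averaged difference was 1.65 ± 0.089 (SE; limma adjusted p = 4.17e-09). M433DRAFT_75270 had 85.59, 84.83 and 96.38 FPKM in WT, 54.74, 58.63 and 56.93 FPKM in WT with copper, 272.33, 244.68 and 232.92 FPKM in ∆ArAceA and 173.84, 167.02 and 186.40 FPKM after copper in ∆ArAceA. Here the genotypes kept nearly the same ratio in both conditions, 2.81-fold without copper and 3.10-fold with copper, all 4 groups were separate, and the averaged difference was 1.55 ± 0.047 (SE; limma adjusted p = 1.27e-11). M433DRAFT_281429 had a difference of 1.24 ± 0.060 (SE; limma adjusted p = 1.18e-09).

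Among the genes called lower, M433DRAFT_68484 had 24.45, 21.82 and 26.01 FPKM in WT, against 13.45, 18.66 and 16.05 FPKM in WT with copper. The ∆ArAceA libraries had 4.80, 4.63 and 2.22 FPKM without copper and was listed at 0 in all 3 copper libraries. The 4 groups do not overlap and the ∆ArAceA libraries are the lowest in both conditions. The averaged difference was -3.24 ± 0.13 (SE), given with no test because the gene reached 5 FPKM only in WT. M433DRAFT_392610 had 14.51, 12.61 and 16.32 FPKM in WT, 9.72, 10.02 and 9.57 FPKM in WT with copper, 1.68, 2.98 and 1.87 FPKM in ∆ArAceA and 0.31, 0 and 0.71 FPKM after copper in ∆ArAceA. It has the same order of groups, and its difference was -2.67 ± 0.13 (SE), with no test for the same reason. M433DRAFT_1547 had 14.25, 12.84 and 16.58 FPKM in WT, 7.50, 6.49 and 6.88 FPKM in WT with copper, 5.58, 5.37 and 4.49 FPKM in ∆ArAceA and 2.53, 3.13 and 2.83 FPKM after copper in ∆ArAceA. Its 4 groups are also separate, with a difference of -1.20 ± 0.076 (SE; limma adjusted p = 1.58e-08).

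The abundant and the deeply lowered genes gave mixed results in this contrast. M433DRAFT_4901 was lower in ∆ArAceA by -1.19 ± 0.24 (SE; limma adjusted p = 0.00195) and M433DRAFT_313061 by -1.25 ± 0.21 (SE; limma adjusted p = 0.000688). M433DRAFT_131504 was not called, with -0.24 ± 0.18 (SE; limma adjusted p = 0.281), but without WT replicate 2 it was called lower, with -0.41 and an adjusted p of 0.00236 from limma. M433DRAFT_65650 was not called, with -0.07 ± 0.26 (SE; limma adjusted p = 0.837) and a sign that turned when 1 of several libraries was left out, and its means were the higher in ∆ArAceA without copper and the lower with copper. The genes listed at 0 in every copper library of both genotypes differed by -0.09 ± 0.075 for M433DRAFT_966 and -0.42 ± 0.11 for M433DRAFT_446038 (SE each). With copper both genotypes are at 0, so these differences follow from the copper changes that the rule used. They are given with no test, though both genes stay in the counts above, M433DRAFT_446038 among those called lower. M433DRAFT_283655, which reached 5 FPKM only in ∆ArAceA, had a difference of 0.56 ± 0.083 (SE), given with no test.

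An average over copper conditions can join opposite differences, so the group means were also set side by side, with no test because each condition shares its libraries with the rule. ∆ArAceA had the higher mean in both conditions for 22 genes, the lower mean in both for 22, and the higher mean without copper with the lower mean with copper for 19. The reverse crossing was found in 0 genes, and 2 had equal means in a condition. The 19 crossing genes had median levels of 72.5 FPKM in WT, 40.6 FPKM in WT with copper, 110 FPKM in ∆ArAceA and 17.0 FPKM in ∆ArAceA with copper, and median changes of -0.65 in WT and -1.82 in ∆ArAceA. The median difference of ∆ArAceA minus WT was 0.30 without copper and -0.27 with copper for the set, and 0.12 in both for all tested genes.

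The crossing genes include several of those called on average. Of the 22 genes called lower, 18 were lower in both conditions and 3 crossed, which were M433DRAFT_387617, M433DRAFT_139266 and M433DRAFT_345637. M433DRAFT_387617 was called lower by -1.20 ± 0.31 (SE; limma adjusted p = 0.00875) and M433DRAFT_139266 by -1.29 ± 0.29 (SE; limma adjusted p = 0.00421), although both had the higher mean in ∆ArAceA without copper. M433DRAFT_345637, named after its values were seen, had 468.45, 245.20 and 445.74 FPKM in WT, 176.69, 220.30 and 151.83 FPKM in WT with copper, 507.91, 533.06 and 392.00 FPKM in ∆ArAceA and 64.15, 58.00 and 49.68 FPKM after copper in ∆ArAceA. Without copper its genotypes overlap, and with copper all ∆ArAceA libraries lie below all WT libraries. Of the 21 genes called higher, 19 were higher in both conditions and 2 crossed, M433DRAFT_157833 and M433DRAFT_3662, and of the 21 not called, 14 crossed.

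The levels of the classes are given as a description with no test. The classes were defined by the genotype difference, which largely fixes the order of WT and ∆ArAceA within those called. They include the genes that reached 5 FPKM in 1 genotype only, 3 among those called higher and 3 among those called lower. The genes called higher had median levels of 15.1 FPKM in WT, 7.94 FPKM in WT with copper, 39.7 FPKM in ∆ArAceA and 15.3 FPKM after copper in ∆ArAceA. The genes called lower had 63.3, 37.7, 55.0 and 13.0 FPKM, and those not called had 42.4, 29.1, 52.0 and 14.9 FPKM, in the same order. The share of the level left after copper in WT was a median of 60.0% in the genes called higher, 56.3% in those called lower and 63.4% in those not called. In ∆ArAceA it was 40.8%, 39.0% and 33.3%.

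M433DRAFT_8911, named after its values were seen, was the 1 gene with most of its summed FPKM in 1 library. It had 0, 4.25 and 0.02 FPKM in WT, 0, 0 and 0.09 FPKM in WT with copper, 0, 0 and 20.95 FPKM in ∆ArAceA and 0.04, 0 and 0.11 FPKM after copper in ∆ArAceA. The 2 high values are WT replicate 2 and ∆ArAceA replicate 3, and the other libraries of those groups are at or near 0, so its place in the set rests on 1 library in each genotype.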

How the data were processed

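RNA-seq of 12 mycelial libraries was used, 3 cultures in each of 4 groups. The authors deposited FPKM values for each library and for the whole series, and the 12 library files held the same values as the series table. HISAT2 2.1.0, RSEM 1.2.8 and DESeq2 are named per the submitters' processing notes, with no role or order, while no build or annotation is named in the sources used here. Besides FPKM, the authors' deposited table gives log2 ratios and Q values (adjusted p-values), which were used for description only. Since FPKM values are not counts, no count test was made.

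The members and lists were chosen with earlier results of these data known. Levels were taken as log2(FPKM + 1). Genes with at least 1 FPKM in at least 3 libraries (8741, with 1302 dropped) were fitted with limma 3.58.1 in R 4.3.3, with a mean-variance trend and robust moderation, all 12 libraries in 1 fit without covariates. Calls were made at a Benjamini-Hochberg adjusted p under 0.05. Fold changes on this scale understate the change of low genes, and folds by group means are ratios of mean FPKM. The labels call the replicates separate cultures. Genes named by rule were the members with the deepest change in both genotypes or in 1, the highest mean, the largest and smallest genotype difference, the largest and smallest difference between the changes, a level of 0 in a copper group, and those next to each threshold. Alternatives were other scalings, pseudocounts, filters, moderation, a replicate block and leaving out each library. Sequences and product classes were not used, as the files hold no annotation.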

Additional observations from a re-analysis of the deposited data

How the results depend on the processing

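The number of members was 65 as reported and 11 with a threshold of -1 in place of -0.5. Other rules and scalings gave 54 (upper-quartile scaling) to 83 genes (pseudocount 0.1, and the group median, which was chosen after seeing the data), and leaving out 1 library gave 60 to 88. The 88 came without WT replicate 2, and they held 61 of the 65 members and 27 others. With members and fit both made without WT replicate 2, an alternative chosen after seeing the data, 36 of the 88 genes were lower in ∆ArAceA, which is 40.9% where 13.9% of all tested genes were, and 28 were higher, which is 31.8% where 47.0% were. These 88 were not limited to genes that reached 5 FPKM in each genotype, and the libraries were not rescaled. The shares are therefore a description, and for the 65 members the distance to the background depended on the scaling. Over the other alternatives run, 21 to 22 members were called higher and 21 to 27 lower, the 27 without WT replicate 2, apart from the 18 and 19 among the 57 members that reached 5 FPKM in each genotype, a choice made after seeing the data. Over all tested genes, 1277 were lower as reported, 2755 after median-of-ratios scaling and 2689 after upper-quartile scaling; higher calls were 4005, 2697 and 2730. Of 288 alternative values for 16 named genes, 278 kept direction and side of the threshold, 4 changed sign and 6 were newly called. All 4 belonged to M433DRAFT_65650, called under no alternative, whose difference ran from -0.2941 (without WT replicate 2) to 0.0493 (without WT replicate 3) when 1 library was left out. The 6 were in M433DRAFT_73121, M433DRAFT_59954 and M433DRAFT_131504. The cause of these changes was not tested.

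With a replicate block the counts were 21 higher and 22 lower. Same-numbered libraries showed little joint deviation (correlations from -0.175 to 0.0656 over 18 pairs). In 8 of the 18 pairs the same number gave the best match, and all 8 joined groups other than WT without copper. Among the pairs of those other groups, only replicate 1 of WT with copper and ∆ArAceA with copper lacked the best match. Whether libraries of the same number shared a batch was not tested. Sequencing depth is unknown, genes under about 5 FPKM rest on low values, and 3 cultures a group limit the precision.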
